A study of Mus musculus with 14 samples.

Results

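The miR-17-92 cluster and its paralogs were represented on the arrays by 10 mouse miRs, mmu-miR-17, mmu-miR-18a, mmu-miR-19a, mmu-miR-19b, mmu-miR-20a, mmu-miR-92a, mmu-miR-106a, mmu-miR-106b, mmu-miR-93 and mmu-miR-25. They were selected by name, not by their values, and all 10 were among the 520 mouse miRs that the authors kept above their detection threshold and that were tested. All mice were male C57Bl/6 aged 3 to 4 months, and total RNA came from the cardiac left ventricle (LV). In the HF+E2 group (n = 5), transaortic constriction (TAC), which overloads the LV by narrowing the aorta, had led to heart failure (HF) within 6 to 8 weeks, after which the mice carried a pellet under the skin for 10 days that released 0.03 mg/kg of estradiol (E2) daily. The HF group (n = 5) had TAC and HF without estradiol, and the sham group (n = 4) had surgery without the constriction. HF mice were euthanized once HF was reached, and no pellet is described for them, so that estradiol, the pellet and the 10 further days cannot be told apart. Each mouse was measured on 1 array.

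The cluster is a polycistron, in which several miRs are cut from 1 transcript. Members that share a seed, the stretch near the 5′ end of a miR that pairs with its target mRNAs, can repress many of the same targets. The family is a known target of MYC and E2F factors in proliferating cells, and mice without miR-17-92 die around birth with defects of the heart and lungs. In the heart, miR-18a and miR-19b are known to repress the matrix proteins CTGF and thrombospondin-1, miR-92a restrains growth of new vessels from endothelial cells, and miR-25 represses the calcium pump SERCA2a.

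The mature sequences are shown because seed and cluster define the groups compared. They are from RefSeq with GRCm38.p6 coordinates, they were identical to the sequences in the deposited table for all 10 members, and capitals mark the seed, bases 2 to 8. The miR-17 seed was shared by 5 members from 3 chromosomes:
mmu-miR-17 (chr14:115043684-115043706, plus strand): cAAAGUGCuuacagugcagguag
mmu-miR-20a (chr14:115044183-115044205, plus strand): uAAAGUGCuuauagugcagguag
mmu-miR-106a (chrX:52742541-52742563, minus strand): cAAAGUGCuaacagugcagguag
mmu-miR-106b (chr5:138165787-138165807, minus strand): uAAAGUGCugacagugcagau
mmu-miR-93 (chr5:138165574-138165596, minus strand): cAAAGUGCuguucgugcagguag
The miR-18 seed had 1 member, whose seed differs from the miR-17 seed by 1 base:
mmu-miR-18a (chr14:115043867-115043889, plus strand): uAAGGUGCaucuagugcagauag
The miR-19 seed had 2 members, and mmu-miR-19b is also encoded at chrX:52741991-52742013 on the minus strand:
mmu-miR-19a (chr14:115044048-115044070, plus strand): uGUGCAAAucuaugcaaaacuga
mmu-miR-19b (chr14:115044358-115044380, plus strand): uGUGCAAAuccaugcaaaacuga
The miR-25/92 seed had 2 members, and mmu-miR-92a is also encoded at chrX:52741854-52741874 on the minus strand:
mmu-miR-25 (chr5:138165332-138165353, minus strand): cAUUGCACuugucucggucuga
mmu-miR-92a (chr14:115044476-115044496, plus strand): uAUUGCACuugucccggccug

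The genomic clusters cut across these seed groups. The miR-17-92 cluster on chromosome 14 encodes 6 members (miR-17, miR-18a, miR-19a, miR-20a, miR-19b and miR-92a). Of their hairpins there, only that of miR-92a lies within the interval of the Mir17hg gene in the RefSeq annotation used. This describes that interval, not which miRs share a transcript. The miR-106b-25 cluster encodes miR-106b, miR-93 and miR-25 within Mcm7 on chromosome 5, a gene for a subunit of the replicative helicase. The miR-106a-363 cluster on chromosome X encodes miR-106a and second copies of miR-19b and miR-92a. The probes for these 2 mature miRs therefore cannot tell from which cluster they came. Near-identical members can also cross-hybridize. Counting from 1 at the 5′ end, miR-17 and miR-106a differ by U10A alone, and miR-19a and miR-19b by U11C alone. Each probe holds 2 copies of the complement of its miR, and the units for miR-17 and miR-106a are shown with the base opposite position 10 in capitals:
probe unit for mmu-miR-17, opposite bases 2 to 22: tacctgcactgtAagcacttt
probe unit for mmu-miR-106a, opposite bases 1 to 22: tacctgcactgtTagcactttg
How much of each probe's signal came from the neighboring miR was not tested.

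Values are the authors' scaled log2 intensities, and a difference of 1 is 2-fold. All members lay at least 2.56 log2 units above the detection threshold on every array and none was saturated. Between mice of the same group the SD was 0.17 to 0.28 log2 units, and between the 3 spots of a probe on an array it was 0.08 to 0.14 for 9 members and 0.22 for miR-17. The constants added to scale the arrays were 0.10 to 0.46 on sham arrays, −0.74 to −0.14 on HF arrays, −0.62 on HF+E2 1 and 0.23 to 0.51 on the other HF+E2 arrays, so every comparison with HF depends on the scaling. miRs saturated on all arrays, whose intensities were at the ceiling, showed the size of this step: miR-133a, for example, was called at 0.62 in HF+E2 against HF and −0.78 in HF against sham. Without the miRs saturated on any array, 33 rather than 63 were called in HF+E2 against HF and 98 rather than 139 in HF against sham, and no call of a member changed. Codes in the column headers, whose meaning is not given there, placed the sham arrays in the first code group, HF 1 to 4 in the second, HF 5 and HF+E2 1 to 3 in the third, and HF+E2 4 and 5 in the fourth. A second code was 650 for HF 2 and HF+E2 1 and 600 for all others. The cardiomyocyte miRs miR-1, miR-133a and miR-133b, the endothelial miR-126-3p and the smooth muscle miR-143 and miR-145 were saturated on all 14 arrays, the red cell miR-451 on 11, while the liver miR-122, the brain miR-124 and the epithelial miR-200c were not among the tested miRs. The epithelial miR-141 was among them and was called at 0.59 in HF+E2 against HF and −1.01 in HF against sham. It was at the floor, however, above the detection threshold on only 9 of the 14 arrays and as much as 0.71 below it. Among markers not saturated on all arrays, miR-208b, carried by the slow myosin heavy chain gene, was 5.11 log2 units higher in HF than in sham (limma, adjusted p under the threshold of 0.05, as for the others named here), the cardiomyocyte miR-208a-5p, miR-208a-3p and miR-499 changed by −0.84, −0.83 and −0.59, the mesenchymal miR-199a-5p (saturated on 3 arrays) and miR-214 were higher by 1.06 and 1.19, and the leukocyte miR-142-5p, miR-223 and miR-146a were higher by 0.71, 0.65 and 0.73. These were 3 of the 6 leukocyte markers, and the other 3 were not called, with miR-142-3p at 0.15, miR-150 at −0.31 and miR-155 at −0.13. None of the 2 mesenchymal and 6 leukocyte markers was called in HF+E2 against HF, where 0 of them had an unadjusted p under 0.05, against 137 of all 520 miRs. In whole LV tissue, fewer cells of a type and less RNA per cell cannot be told apart, and the part of cell composition in the member values was not tested.

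The question of the HF+E2 comparisons was which miRs differed once failing hearts had been treated with estradiol. Of the 10 members, 1 was called between HF+E2 and HF, at an adjusted p under 0.05 and a log2 fold change beyond 0.5 in either direction, against 12.1% of all 520 miRs. It was miR-106a, which was lower in HF+E2, a direction in which only 0.962% of all miRs were called. miR-106a was 9.76, 10.32, 10.00, 10.29 and 10.36 on HF+E2 arrays 1 to 5, against 10.64, 10.79, 10.78, 10.63 and 10.76 on HF arrays 1 to 5, and 10.39, 10.67, 10.75 and 10.68 on sham arrays 1 to 4. Every HF+E2 array was below every HF array and below every sham array, and HF and sham overlapped. Among all miRs, every HF+E2 array was below every HF array for 1.54% and below every sham array for 7.5%.

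The log2 fold change of miR-106a in HF+E2 against HF was −0.57 (SE 0.13, 1.49-fold lower, 95% interval −0.85 to −0.29, limma adjusted p = 0.0198, n = 5 each), and an exact permutation test, two-sided, gave p = 0.00794, the smallest that 5 against 5 arrays allow. As in all 30 such tests here, that permutation p was not adjusted. The change of miR-106a was the 12th lowest of 520. Against sham the change was −0.48 (SE 0.14, limma adjusted p = 0.0451; exact permutation p = 0.0159 with n = 5 and n = 4), which passed the p threshold but not the fold threshold of 0.5, and no member was called in that comparison, against 8.46% of all miRs, with 3.27% called lower. In limma, 2 of the 10 members, miR-106a and miR-18a, had an unadjusted p under 0.05 there, against 133 of all 520 miRs. Without sham 1 the change of miR-106a against sham was −0.55 (limma adjusted p = 0.0262) and without HF+E2 5 it was −0.53 (limma adjusted p = 0.0495), and it was called in both. HF differed from sham by 0.10 (SE 0.13, limma adjusted p = 0.607). These comparisons share arrays and are not independent of each other.

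The call of miR-106a between HF+E2 and HF rested on a narrow margin. Without HF+E2 1, the lowest array, the change was −0.48 (limma adjusted p = 0.0126) and fell short of the fold threshold, and without HF 4 it was −0.60 (limma adjusted p = 0.0619). With the array code group as a block, where the third code group alone holds both conditions, it was −0.73 (limma adjusted p = 0.162). The change was negative in each of 26 alternative settings, between −1.20 and −0.40, and was called in 16 of them. It was not called under either quantile normalization, the 75th percentile of detected probes, negative controls subtracted or the methods' t-test. Array weights and leaving out the 650 arrays also lost the call.

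Differences between 2 members on the same array do not contain the scaling constant. The pair of miR-106a and miR-17 was chosen after its values were seen, as the closest in sequence, and is described without a test. Only the shift between groups is read from it, since signals of different probes are not on a common scale. miR-106a minus miR-17 was −1.64, −1.55, −1.55, −1.38 and −1.35 on HF+E2 arrays 1 to 5, against −0.90, −0.87, −0.96, −1.06 and −1.34 on HF arrays 1 to 5, and −0.86, −0.94, −0.84 and −0.89 on sham arrays 1 to 4. All HF+E2 arrays were below all HF and sham arrays. The shift of its mean was −0.47 in HF+E2 against HF and −0.62 in HF+E2 against sham. Among the other 519 miRs set against miR-17 in the same way, 0.385% separated HF+E2 below HF and 15.8% separated HF+E2 below sham. HF 5, the only HF array in the third code group, lay at −1.34, while HF 1 to 4 lay between −1.06 and −0.87. It was next to HF+E2 5 of the fourth code group, at −1.35, whereas the HF+E2 arrays of the third code group lay between −1.64 and −1.55. The part of the array code group in this difference was not tested. On HF 5 miR-17 was high, at 12.10 against 11.54 to 11.73 on the other HF arrays, whereas miR-106a was 10.76 there, within the range of the others. miR-17 was not alone in this. HF 5 was the highest HF array for 7 of the 10 members, miR-20a, miR-93 and miR-19b among them, and for 21.3% of all miRs.

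miR-106a also lay lower relative to miR-106b (−0.55), miR-93 (−0.62) and miR-92a (−0.31) in HF+E2 than in HF, with no overlap of arrays in each case. Relative to miR-20a the shift was −0.33 and to miR-20b, its neighbor on chromosome X, −0.30, and for these 2 pairs the HF+E2 and HF arrays overlapped. Relative to miR-20a, HF 5 lay at −2.08, within the HF+E2 range of −2.255 to −1.95, while HF 1 to 4 lay between −1.81 and −1.72. Relative to miR-93, HF 5 was the lowest HF array, at −1.83, but above all HF+E2 arrays. Relative to miR-92a, miR-106b and miR-20b, HF 5 was among the other HF arrays.

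**Figure D1:**
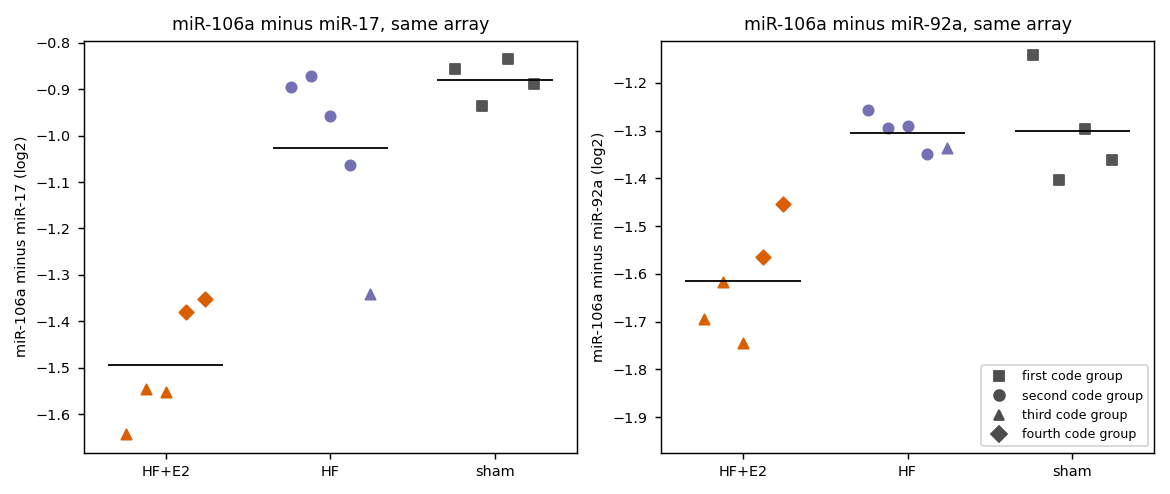
Difference between the scaled log2 values of miR-106a and miR-17 (left panel) or miR-92a (right panel) on the same array, 1 point per mouse by group, with marker shapes for the array code groups and bars at group means. HF+E2 arrays lie below all HF and sham arrays in both panels, and the HF array of the third code group lies at −1.34 in the left panel, next to the HF+E2 arrays.

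The other 4 members with the miR-17 seed were not called in any comparison. miR-17, the founding member, was 11.40, 11.86, 11.55, 11.67 and 11.72 on HF+E2 arrays 1 to 5, against 11.54, 11.66, 11.73, 11.70 and 12.10 on HF arrays, and 11.25, 11.60, 11.59 and 11.57 on sham arrays. HF 5 was high and sham 1 low, and the 3 groups overlapped. HF minus sham was 0.24 (SE 0.15, limma adjusted p = 0.229), HF+E2 minus HF −0.11 (SE 0.13, limma adjusted p = 0.690) and HF+E2 minus sham 0.14 (SE 0.14, limma adjusted p = 0.602).

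miR-20a differs from miR-17 at 2 positions, and its HF+E2 to HF change of −0.24 (SE 0.14, limma adjusted p = 0.279) was in the direction of miR-106a. It ranged over 11.98 to 12.57 in HF+E2, 12.39 to 12.84 in HF and 12.09 to 12.46 in sham. miR-93 and miR-106b, from the cluster within Mcm7, had means that differed between groups by less than their SD in HF+E2. miR-93 averaged 12.41 ± 0.25 in HF+E2, 12.37 ± 0.13 in HF and 12.28 ± 0.23 in sham, and miR-106b averaged 12.64 ± 0.26 in HF+E2, 12.67 ± 0.11 in HF and 12.62 ± 0.10 in sham (SD). For these 2 miRs the HF+E2 to HF changes were 0.04 (95% interval −0.26 to 0.35) and −0.03 (−0.30 to 0.25), so shifts of the size seen for miR-106a lay outside both intervals. The change of miR-106a exceeded that of each of the 4 other miR-17 seed members in size, but that difference was not tested, since miR-106a was singled out by its values.

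miR-18a gave the largest change between HF and sham among the members. Of the 10, 0 were called between HF and sham, against 26.7% of all 520 miRs, and 0 had an unadjusted p under 0.05 with limma, against 220 of all 520 miRs, or with the methods' t-test, against 207 of 520. miR-18a was 8.55, 9.19, 8.82, 9.13 and 9.16 on HF+E2 arrays 1 to 5, against 8.91, 8.30, 9.07, 8.83 and 9.26 on HF arrays 1 to 5, and 8.27, 8.51, 8.55 and 8.60 on sham arrays 1 to 4. Of the 5 HF+E2 and 5 HF arrays, 4 in each group were above all sham arrays. The exceptions were HF+E2 1 and HF 2, which are the 2 arrays with the second code 650. HF minus sham was 0.39 (SE 0.19, 95% interval −0.02 to 0.80, limma adjusted p = 0.132; exact permutation p = 0.0873 with n = 5 and n = 4). HF+E2 minus sham was 0.49 (SE 0.19, 95% interval 0.09 to 0.89, limma adjusted p = 0.121; exact permutation p = 0.0238 with n = 5 and n = 4), and HF+E2 minus HF was 0.10 (SE 0.18).

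Without the 2 arrays of code 650, an alternative chosen after seeing the data, miR-18a was called higher in both comparisons with sham, at 0.59 for HF+E2 (limma adjusted p = 0.0174) and 0.54 for HF (limma adjusted p = 0.0156). The HF value is the same as that without HF 2 alone. The part of the second code in these values was not tested. The mean intensity of miR-18a before scaling was 451 in HF+E2, 652 in HF and 283 in sham.

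Of the miR-19 pair, neither miR was called in any comparison. miR-19a, the one without a copy on chromosome X, was 9.82, 10.47, 9.98, 10.60 and 10.40 on HF+E2 arrays 1 to 5, against 10.43, 10.23, 10.44, 10.31 and 10.41 on HF arrays 1 to 5, and 10.43, 10.53, 10.46 and 10.46 on sham arrays 1 to 4. The HF+E2 arrays spread widely, with an SD of 0.33 against 0.09 in HF and 0.04 in sham, and the groups overlapped. HF minus sham was −0.11 (SE 0.12, limma adjusted p = 0.524), although the exact permutation test, which does not borrow the spread of other miRs, gave p = 0.0476 before adjustment over 30 such tests. miR-19b ranged over 13.62 to 14.02 in HF+E2, 13.51 to 14.06 in HF and 13.58 to 13.91 in sham, with changes of −0.08 in HF against sham and 0.14 in HF+E2 against HF, neither of them called.

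In the miR-25/92 pair, miR-92a was 11.46, 11.94, 11.74, 11.85 and 11.82 on HF+E2 arrays 1 to 5, against 11.90, 12.08, 12.07, 11.98 and 12.10 on HF arrays 1 to 5, and 11.53, 12.07, 12.05 and 12.04 on sham arrays 1 to 4. Of the HF+E2 arrays, only HF+E2 2 reached the HF range, and sham 1, at 11.53, was well below the other sham arrays. The HF+E2 to HF change was −0.26 (SE 0.13, 95% interval −0.55 to 0.02, limma adjusted p = 0.209; exact permutation p = 0.0159, unadjusted, n = 5 each), the second lowest of the 10 members after miR-106a, and HF minus sham was 0.10 (SE 0.14). miR-25 averaged 12.13 ± 0.27 in HF+E2, 12.24 ± 0.07 in HF and 12.27 ± 0.19 in sham (SD), with changes of −0.11 in HF+E2 against HF and −0.02 in HF against sham, both uncalled.

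**Figure D2:**
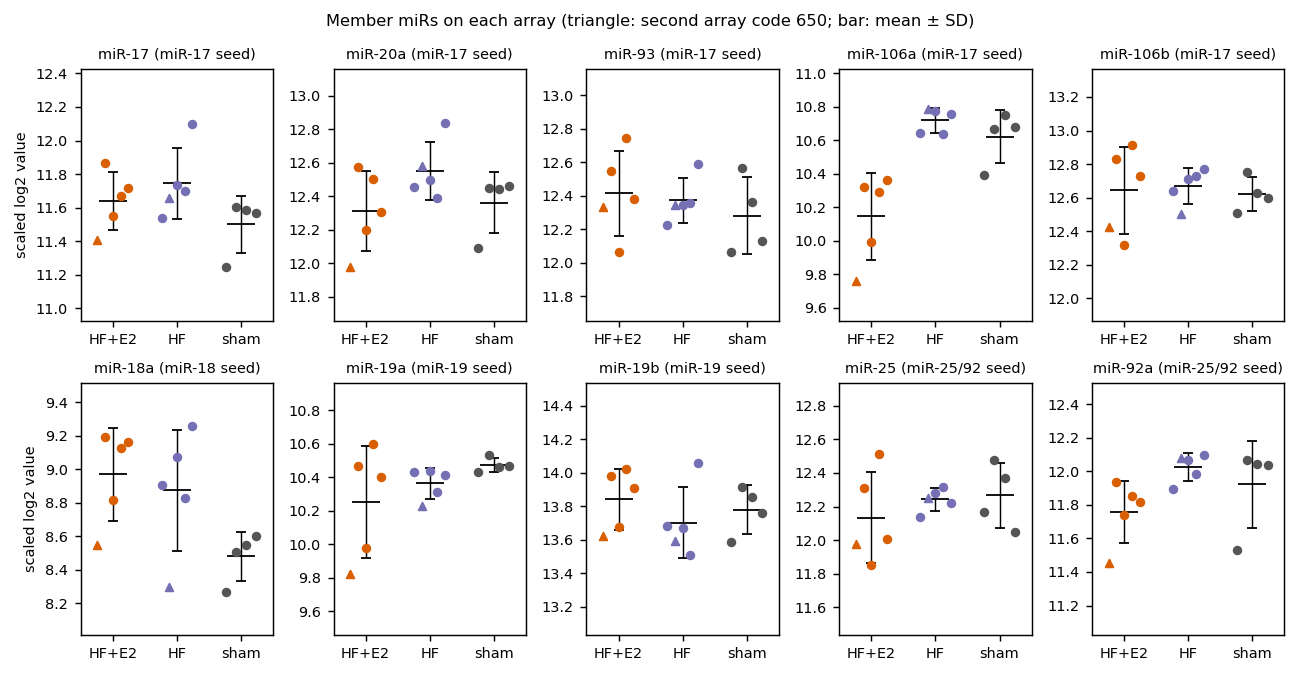
Scaled log2 values of the 10 members on each array, in panels of 1 miR that all span the same number of log2 units, with 1 point per mouse, triangles for the arrays with the second code 650, and bars for the mean ± SD. The HF+E2 points of miR-106a lie between 9.76 and 10.36, below all HF and sham points, and the sham points of miR-18a lie at or below 8.60, with HF+E2 1 and HF 2 beside them.

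By seed, the miR-17 group had a median log2 fold change of 0.10 in HF against sham, with 5 of 5 members above 0, although miR-106a and miR-106b fell below 0 after quantile normalization of the scaled values, and a median over all 520 miRs of −0.13. The same group had a median of −0.11 in HF+E2 against HF, with 4 of 5 members below 0, against 0.06 over all miRs, although miR-17 and miR-106b were above 0 after quantile normalization of the raw intensities or scaling to the 75th percentile of detected probes. Within the group the changes spanned 0.62 log2 units in HF+E2 against HF but only 0.20 in HF against sham. The miR-19 group had medians of 0.01 in HF+E2 against HF and −0.09 in HF against sham, and the miR-25/92 group −0.19 and 0.04. Averaged over its members after each was centered on its mean, the miR-17 group was at −0.08 ± 0.22 in HF+E2, 0.10 ± 0.12 in HF and −0.03 ± 0.15 in sham (SD), and the miR-25/92 group at −0.11 ± 0.20 in HF+E2, 0.08 ± 0.07 in HF and 0.04 ± 0.19 in sham. These differences were of the order of the spread between mice, and no seed group separated the 3 conditions. The miR-18 group, with miR-18a alone, was at 0.17 ± 0.28 in HF+E2, 0.08 ± 0.36 in HF and −0.31 ± 0.15 in sham.

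By cluster, the changes of members encoded together did not all have the same sign, but only that of miR-106a in HF+E2 against HF was called. The signs also depended on the scaling. miR-19a, miR-19b and miR-25, below 0 in HF against sham, were above 0 with the 75th percentile of all probes or without scaling. The 6 members of miR-17-92 ranged between −0.11 (miR-19a) and 0.39 (miR-18a) in HF against sham, and between −0.26 (miR-92a) and 0.14 (miR-19b) in HF+E2 against HF. The miR-106b-25 cluster had the narrowest range in both comparisons, with changes between −0.11 and 0.04 in HF+E2 against HF and between −0.02 and 0.09 in HF against sham. In the miR-106a-363 cluster, miR-106a and miR-92a were the 2 members lowest in HF+E2 against HF, at −0.57 and −0.26, while miR-19b was at 0.14, although it has a copy in each of the same 2 clusters as miR-92a. As centered means the clusters stood at −0.02 ± 0.22 (miR-17-92), −0.01 ± 0.26 (miR-106b-25) and −0.14 ± 0.20 (miR-106a-363) in HF+E2, against 0.06 ± 0.15, 0.02 ± 0.08 and 0.09 ± 0.10 in HF, and −0.06 ± 0.15, −0.02 ± 0.17 and 0.05 ± 0.18 in sham (SD).

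**Figure D3:**
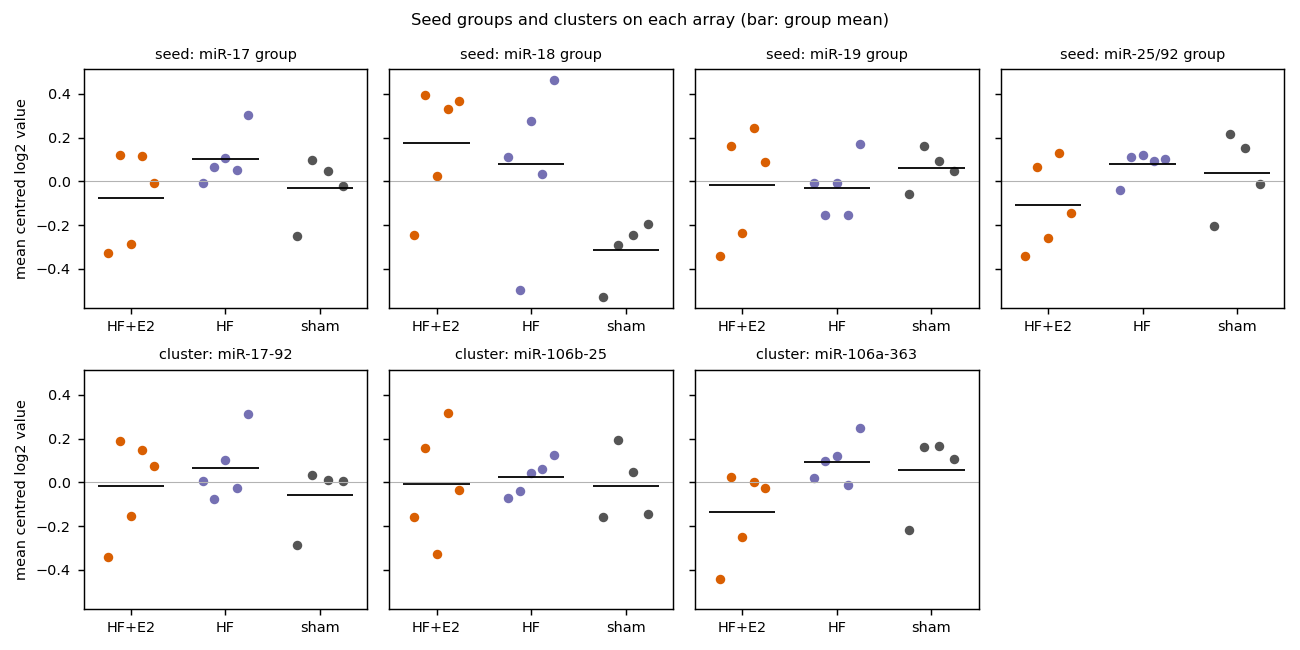
Mean of the members' log2 values, each member centered on its mean over the 14 arrays, for the 4 seed groups (upper row) and the 3 clusters (lower row), with 1 point per mouse and bars at group means. Only the miR-18 group, which is miR-18a alone, has its sham points at or below −0.19, and the groups overlap in every panel.

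**Figure D4:**
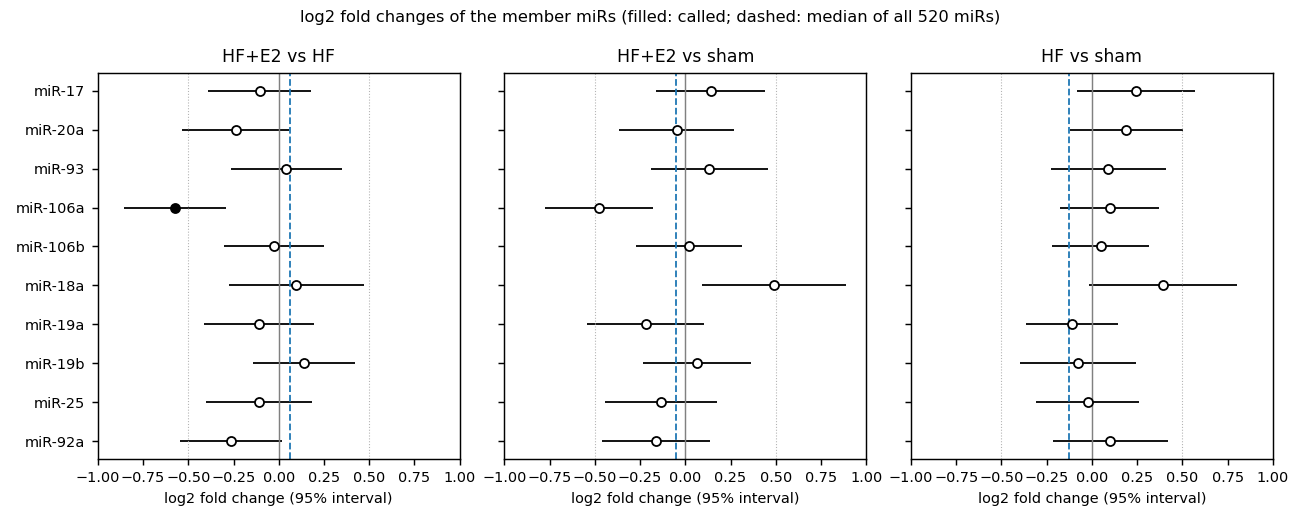
log2 fold changes of the 10 members with 95% intervals from limma in HF+E2 against HF, HF+E2 against sham and HF against sham, with a filled point for a called miR, dotted lines at the fold threshold and a dashed line at the median of all 520 miRs. Only miR-106a in HF+E2 against HF is filled, at −0.57.

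Some arrays were low or high for most members at once. Sham 1 was the lowest sham array for 9 of the 10 members and for 58.3% of all miRs, HF+E2 1 was the lowest HF+E2 array for 7 members and for 37.7% of all miRs, and HF 5 was the highest HF array for 7 members and for 21.3% of all miRs. HF 5 was thus at the top of its group more often among the members than among all miRs, although the members are not independent of each other.

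The opposite arms of the same hairpins, written with an asterisk, add a second reading of each transcript. Of 13 such names, 12 were on the array and 6 were measured, and of 11 names for other miRs of the chromosome X cluster or of the miR-25/92 seed, 9 were on the array and 3 were measured. miR-18a* was higher in HF+E2 than in HF by 0.56 (SE 0.15, limma adjusted p = 0.0356). It read 5.92, 6.37, 6.11, 6.44 and 6.25 on HF+E2 arrays 1 to 5, against 5.45, 6.13, 5.60, 5.56 and 5.55 on HF arrays 1 to 5, and 5.70, 5.99, 6.02 and 6.11 on sham arrays 1 to 4. HF 2 reached the HF+E2 range, miR-18a* lay as little as 0.20 above the detection threshold, and the call was lost when any of 7 single arrays was left out, at adjusted p of up to 0.104 with limma. The guide strand miR-18a was at 0.10 in that comparison and was not called. With quantile normalization of the scaled values miR-18a* was at 0.25 (limma adjusted p = 0.144), and without scaling at −0.08, so its direction turned.

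miR-32, a miR-25/92 seed member from an intron of Tmem245 on chromosome 4, was the only measured relative that was called. Its sequence is shown because it shares the seed of miR-25 and miR-92a, again in capitals:
mmu-miR-32 (chr4:56895272-56895293, minus strand): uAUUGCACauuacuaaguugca
miR-32 was 6.12, 6.44, 6.26, 6.66 and 6.52 on HF+E2 arrays 1 to 5, against 5.60, 5.75, 5.94, 5.69 and 5.56 on HF arrays 1 to 5, and 6.25, 6.25, 6.53 and 6.28 on sham arrays 1 to 4. All HF arrays were below all HF+E2 and sham arrays. It was lower in HF than in sham, with a log2 fold change of −0.62 (limma adjusted p = 0.00586), as were 18.3% of all miRs by the same rule, and every HF array was below every sham array for 13.7% of all miRs. It was higher in HF+E2 than in HF by 0.69 (limma adjusted p = 0.00851), as were 11.2% of all miRs, and every HF+E2 array was above every HF array for 4.04%. Both changes share the HF arrays. miR-32 was dim, as little as 0.02 above the threshold, its intensity before scaling averaged 76.6 in HF+E2, 73.1 in HF and 64.6 in sham, and without scaling the changes were 0.06 in HF+E2 against HF and 0.17 in HF against sham, so the direction against sham turned. With quantile normalization of the scaled values they were 0.42 (limma adjusted p = 0.0647) in HF+E2 against HF and −0.31 (limma adjusted p = 0.112) in HF against sham, and neither was called. Both changes of miR-32 were of the size of those of the saturated miRs.

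Among the arms and relatives that were not called, miR-20b, the miR-17 seed member next to miR-106a, changed by −0.28 in HF+E2 against HF and −0.32 in HF+E2 against sham (limma adjusted p = 0.204), in the direction of miR-106a. miR-92a-2*, the opposite arm of the miR-92a copy on chromosome X, went the other way in HF+E2 against HF, at 0.13 (limma adjusted p = 0.745). Against sham it was at −0.08 in HF+E2. miR-19a* changed by 0.49 in HF+E2 against HF (limma adjusted p = 0.157), miR-17* by 0.23 (limma adjusted p = 0.250) and miR-92b by −0.23 in HF+E2 against sham (limma adjusted p = 0.395). Between HF+E2 and sham, 0 of the 9 arms and relatives were called, against 8.46% of all miRs, and 0 had an unadjusted p under 0.05 in limma, against 133 of all 520 miRs.

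The non-member miRs closest to the mean profile of the members over the 14 arrays, by root mean square difference of centered log2 values, were miR-15a (0.10), miR-125a-5p (0.12, saturated on 3 arrays) and miR-107 (0.13). Individual members lay at 0.08 (miR-106b) to 0.26 (miR-18a) from that mean, with miR-106a at 0.24, so miR-18a and miR-106a were the members least like the others. The miR closest to miR-106a itself was miR-322 (0.14), which is also encoded on chromosome X, followed by miR-92a (0.17) and miR-20b (0.17), while miR-17, 1 base away in sequence, ranked 41 of 519 (0.29). The miRs near miR-106a were looked up after its values were seen, and these are descriptions over arrays that share scaling and array codes, without a test.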

How the data were processed

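The LV of 14 mice was measured on single-channel arrays of miRBase probes, 1 array per mouse, and groups were taken from the sample titles. The authors deposited intensities as background-subtracted whole numbers for 3 spots per probe, unscaled, and log2 values that they made by averaging the spots and adding 1 constant per array from its 20% trimmed mean. For the 10 members the log2 values departed from such a constant by at most 0.02. Per the notes in the table, the authors kept mouse miRs above a threshold set from negative control probes, and 520 of them were tested here. The series matrix, of all 2576 probes, was deposited on the same log2 scale. The authors' own p-value, FDR, fold and mean columns were not used. No value column was left unassigned.

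The main models were 1 of the 9 HF and sham arrays, for that comparison, and 1 of all 14 arrays, for both HF+E2 comparisons, fitted to the log2 values as deposited (lmFit and eBayes of limma 3.58.1, R 4.3.3). Benjamini-Hochberg adjustment ran over all 520 miRs. Calls needed an adjusted p below 0.05 together with a log2 fold change beyond 0.5 either way, thresholds that the study's methods give for TAC against sham, with no log base, and that were applied to all 3 comparisons here. Single members were also compared by exact permutation tests, two-sided and unadjusted, 30 in all (scipy 1.17.1). The fits were tested on simulated data. The number of arrays limits the precision. A spot was taken as saturated from an intensity of 65000 and a miR with 2 of 3 such spots. The members and the lists of arms, relatives and markers were chosen with earlier results of these data known. All members and all measured markers are named, with the arms and relatives that were called and up to 4 further arms or relatives by the smallest p. Also named are miR-92a-2*, for its place on chromosome X, and the 3 miRs most like the members. Alternatives were other scalings, background, filter, test, weights, blocks and leaving out each array. Figures were drawn with matplotlib 3.10.9.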

Additional observations from a re-analysis of the deposited data

Results flagged for a closer look

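Sham 1 stood apart from the other sham arrays for 3 members by Dixon's test of the gap to the nearest array over the whole range. It read 11.25 for miR-17, against 11.57 to 11.60 on the other sham arrays, 12.09 for miR-20a, against 12.44 to 12.46, and 11.53 for miR-92a, against 12.04 to 12.07. The gap was 0.903, 0.940 and 0.945 of the range, above the 95% critical value for 4 samples. Such gaps were looked for in 30 combinations of a member and a group, and chance alone gives about 1 in 20. Without sham 1, the change in HF against sham was not called for any member, and that of miR-92a turned to −0.03.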

How the results depend on the processing

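The table of the 10 members was refitted under 23 alternatives for HF against sham, 26 for HF+E2 against HF and 23 for HF+E2 against sham. Counts of called members were as follows. Between HF+E2 and HF, where 1 was called, 0 were called with quantile normalization of the scaled values or of the raw intensities, the 75th percentile of probes detected on all arrays, negative controls subtracted, the methods' t-test after adjustment, array weights, the array code group as a block or the 650 arrays left out, and 9 without scaling. Between HF and sham, where 0 were called, 10 were called without scaling and 1 with the 650 arrays left out. Between HF+E2 and sham, where 0 were called, 1 was called without scaling, with array weights, with the replicate block and with the 650 arrays left out. Leaving out 1 array gave 0 to 1 called members in each comparison (0 without HF 4 or HF+E2 1 in HF+E2 against HF, 1 without HF 2 in HF against sham, and 1 without sham 1 or HF+E2 5 in HF+E2 against sham). Over all miRs, calls ranged over 0 to 170 against 63 in HF+E2 against HF (5 without HF 4 and 87 without HF+E2 1), 55 to 244 against 139 in HF against sham, and 20 to 63 against 44 in HF+E2 against sham. The methods' t-test at an unadjusted p under 0.05 gave 0 members in HF against sham (207 of all 520 miRs), 2 in HF+E2 against HF (miR-106a and miR-92a, against 133 of 520) and 2 in HF+E2 against sham (miR-106a and miR-18a, against 124 of 520).

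miR-106a in HF+E2 against HF was −0.47 (adjusted p = 0.0579) and −0.51 (0.110) under the quantile normalizations, −0.40 (0.151) with the detected probes' percentile, −0.60 (0.055) with negative controls subtracted, −0.57 (0.0589) in the t-test, −0.46 (0.00577) with array weights, −0.73 (0.162) with the code group as a block, −0.46 (0.0164) without the 650 arrays, and −0.63 to −0.48 when 1 array was left out.

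The replicate numbers were taken from the sample titles, which do not say whether equal numbers pair mice across groups. After group means were removed, 13 pairs of arrays with equal numbers correlated between −0.295 and 0.457 (median 0.129), and 7 of 14 arrays correlated best with their own number. How many would do so without any pairing was not worked out. With the replicate block, miR-106a in HF+E2 against sham was −0.51 (adjusted p = 0.0306) and called, miR-106b there turned to −0.0032, and counts over all miRs were 144 against 139 in HF against sham, 72 against 63 in HF+E2 against HF and 34 against 44 in HF+E2 against sham.

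Other changes of direction, all of values that were not called on the deposited scale, were these. Without scaling, where the median of all miRs moved by 0.78 in HF against sham, −0.61 in HF+E2 against HF and 0.17 in HF+E2 against sham, HF against sham gave 0.68 (miR-19a), 0.71 (miR-19b) and 0.76 (miR-25), HF+E2 against HF −0.58 (miR-93), −0.52 (miR-18a) and −0.48 (miR-19b), and HF+E2 against sham 0.12 (miR-20a), 0.033 (miR-25) and 0.0023 (miR-92a). With the 75th percentile of all probes (shift of 0.18 in HF against sham) these were 0.067 (miR-19a), 0.10 (miR-19b) and 0.15 (miR-25) in HF against sham, −0.058 (miR-93) and −0.0074 (miR-18a) in HF+E2 against HF, and 0.027 (miR-20a) in HF+E2 against sham. With that of the detected probes (shifts of 0.18 in HF+E2 against HF and 0.15 against sham) they were 0.070 (miR-17), 0.15 (miR-106b), 0.063 (miR-19a) and 0.063 (miR-25) in HF+E2 against HF, and 0.10 (miR-20a) and 0.011 (miR-25) against sham. Quantile normalization of the raw intensities (shift of 0.10 in HF against sham) gave 0.078 (miR-17), 0.10 (miR-106b) and 0.030 (miR-19a) in HF+E2 against HF and 0.049 (miR-20a) against sham. That of the scaled values gave −0.011 (miR-106a) and −0.049 (miR-106b) in HF against sham, 0.034 (miR-19a) in HF+E2 against HF and −0.055 (miR-106b) in HF+E2 against sham. Array weights gave −0.017 (miR-92a) in HF against sham and 0.042 (miR-106b) in HF+E2 against HF, the code group block −0.27 (miR-93), −0.41 (miR-18a) and −0.30 (miR-19b) in HF+E2 against HF, and leaving out the 650 arrays 0.036 (miR-20a) in HF+E2 against sham. With 1 array left out, values ranged over −0.10 to 0.047 (miR-25) and −0.028 to 0.15 (miR-92a) in HF against sham, −0.040 to 0.13 (miR-93), −0.10 to 0.054 (miR-106b) and −0.047 to 0.20 (miR-18a) in HF+E2 against HF, and −0.14 to 0.036 (miR-20a), −0.047 to 0.10 (miR-106b) and −0.0026 to 0.12 (miR-19b) in HF+E2 against sham.

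Of the 9 arms and relatives, 1 was called in HF against sham, against 0 with either quantile normalization or the percentile of all probes, 5 without scaling, 2 with array weights or without the 650 arrays, and 1 to 2 with 1 array left out (2 without sham 1 or HF 2). Between HF+E2 and HF, 2 were called, against 0 with either quantile normalization, negative controls subtracted or the code group block, 1 with the percentile of all probes, the t-test or only the 2 groups in the fit, and 1 to 3 with 1 array left out (1 without HF 1, 4 or 5 or HF+E2 2, 3, 4 or 5). Without scaling, miR-32 was at 0.17 in HF against sham and miR-18a* at −0.080 in HF+E2 against HF. Under quantile normalization of the scaled values, differences between centered means of the seed groups and clusters moved by less than the SD of either group compared, with an exception. The miR-19 group stood at −0.03 in HF and 0.06 in sham (sham SD 0.09) on the deposited scale. After that normalization it stood at −0.10 in HF and 0.10 in sham, a move larger than the sham SD. Leaving out the miRs saturated on any array changed no call of a member. Estimated array code correlations were −0.066 in HF against sham and −0.00865 in the others, and that random block, added after seeing the data as were the 650 arrays and the second code as a block, changed no call of a member. The causes were not tested.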

Other observations

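Probes designed for human or rhesus miRs of the same family were also on the arrays and are given as values, without a test. All 6 were above the detection threshold on all 14 arrays. The sequences of these probes are not given here, so a shared name does not show which mouse miR a probe reads. The probe for human miR-106a averaged 11.71 ± 0.13 in HF+E2, 11.91 ± 0.11 in HF and 11.63 ± 0.23 in sham (SD). Its HF+E2 minus HF difference was −0.20, where the mouse probes gave −0.57 for miR-106a and −0.11 for miR-17. The probe shared by rhesus miR-106a and miR-17-5p gave 0.01, that for rhesus miR-20a −0.27, that for rhesus miR-93 0.07, that for human and rhesus miR-92a −0.10 and that for human and rhesus miR-18b 0.07. In HF minus sham the same probes gave 0.27 for human miR-106a, 0.06 for rhesus miR-106a and miR-17-5p, 0.18 for rhesus miR-20a, −0.03 for rhesus miR-93, 0.05 for miR-92a and 0.25 for miR-18b.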
